A study of Oryza sativa with 4 samples.

Results

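The diterpenoid phytoalexin genes of rice examined here were 10 loci of 2 biosynthetic gene clusters, chosen by identifier from the 35667 rows of the gene table. The cluster on chromosome 4 gave CPS4 (OS04G0178300), CYP99A3 (OS04G0178400), MAS (OS04G0179200), KSL4 (OS04G0179700) and CYP99A2 (OS04G0180400). The cluster on chromosome 2 gave CPS2 (OS02G0571100), KSL7 (OS02G0570400), CYP76M7 (OS02G0569900), CYP76M8 (OS02G0569400) and CYP71Z7 (OS02G0570700). All 10 loci were present in the table, each on a single row. RNA came from the widest part of flag leaf blades of d1 plants, which carry the d1-1 allele of RGA1, and of wild-type plants (WT, line TC65). RGA1 encodes the alpha subunit of the heterotrimeric G protein, a membrane-associated signalling switch, and d1 plants are dwarf. Plants of both genotypes stood singly in pots in a greenhouse, untreated, with a photoperiod of 16 h, a light intensity near 500 μmol per square metre per second and a day average of 30 °C, and their age is given both as 2 months and as 100 days. Each genotype had 2 biological replicate libraries, 4 in all, and the labels name 1 mutant allele only, do not say whether d1 is in the TC65 background, and do not say how many plants a library holds.

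Rice makes momilactones and phytocassanes, antimicrobial diterpenoids that accumulate in leaves after fungal attack, wounding or ultraviolet light and are also released by roots. Their synthesis starts in the plastid, where a copalyl diphosphate synthase (CPS) folds the general precursor geranylgeranyl diphosphate and a kaurene synthase-like cyclase (KSL) closes the remaining rings. Cytochrome P450 enzymes (CYP) and a dehydrogenase then oxidise the skeleton. The chromosome 4 cluster serves momilactones through the syn form of copalyl diphosphate, and the chromosome 2 cluster serves phytocassanes through the ent form, which gibberellin synthesis uses as well. In healthy leaves these genes are usually weakly expressed, and the sources used here name no pathogen or elicitor.

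Levels are FPKM values, that is, fragment numbers divided by transcript length and sequencing depth, and the authors had merged the libraries of a genotype into 1 value before deposit. No spread between libraries is therefore known, no SD can be given, and the order of close values within a genotype cannot be tested. "Called" means a q-value under 0.05 in the authors' deposited table. By that rule 12.1% of the 23672 tested genes were called lower in d1, 7.24% were called higher and 19.3% were called in either direction. Among the 5577 tested genes with a mean under 2 FPKM, a limit set after the values were known, the shares were 9.43%, 3.37% and 12.8%. RGA1 (OS05G0333200) stood at 17.3 FPKM in d1 and 20.7 FPKM in WT and was not called (q = 0.296 in the authors' deposited table). The FPKM of a whole locus does not show the d1-1 lesion. The FPKM sum was 1381426 in d1 and 1144962 in WT, so setting the sums equal would lower every log2 ratio by 0.27, whereas tested genes had a median log2 ratio of -0.02.

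Of the 10 cluster genes, 1 was called lower in d1, KSL7, none was called higher, 5 were tested and not called, and 4 had no test. Each of the 10 had a lower value in d1 than in WT, and 6 of the 10 stood at less than 1/2 of the WT value. For CPS2 the difference was so small that centring on the median of tested genes turned its sign, leaving 9 of 10 on the lower side. Of the 6 tested cluster genes, all 6 had a lower value in d1 and 3 stood at less than 1/2 of WT. Among all tested genes, 51.5% had a lower value in d1 (59.6% of those with a mean under 2 FPKM). The share at less than 1/2 of WT was 9.82% (21.6% of those with a mean under 2 FPKM). These shares cover tested genes only, so they do not apply to the counts over all 10. At an unadjusted p under 0.05 in the authors' deposited table, 2 cluster genes were lower, KSL7 and CYP76M7, and 0 were higher. The share of all tested genes at that threshold was not computed. This count and the later counts at that threshold therefore have no background to be read against. With 6 tested genes, a count of 1 lower call cannot be told from the background share.

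**Figure D1:**
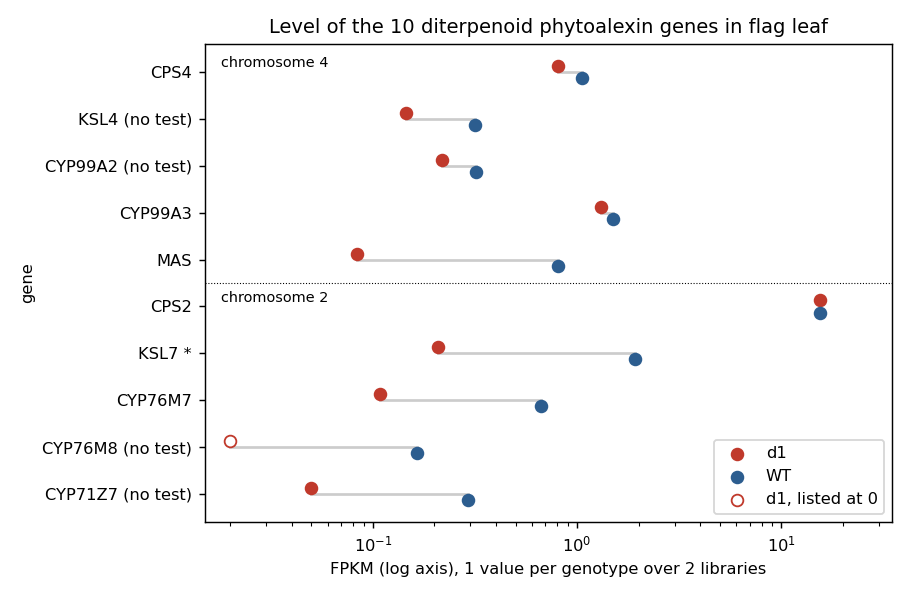
FPKM on a log axis of the 10 cluster genes in d1 (red, upper of each pair) and WT (blue, lower), 1 value per genotype merged over 2 libraries, with chromosome 4 above the dotted line and chromosome 2 below it; the star marks the called gene, and the open circle, placed at the left edge, marks 0 FPKM. CPS2 lies at 15.4 FPKM in both genotypes, and the other 9 genes lie below 2 FPKM.

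Most of the clusters were weakly expressed in both genotypes. The 10 genes had a median of 0.177 FPKM in d1 and 0.735 FPKM in WT, against medians of 7.41 FPKM in d1 and 7.80 FPKM in WT over tested genes. Of the 10 genes, 2 reached 1 FPKM in d1 (CPS2 and CYP99A3) and 4 did so in WT (the same 2 with KSL7 and CPS4). CPS2 alone made up 84.1% of the summed FPKM of the 10 genes in d1 and 68.7% in WT. Without CPS2, the other 9 genes summed to 2.92 FPKM in d1 and 7.03 FPKM in WT. The 4 genes without a test, KSL4, CYP99A2, CYP76M8 and CYP71Z7, had means under 0.3 FPKM, a range in which 3.71% of the 6067 rows above 0 were tested. Whether a gene was tested thus went with its level, so the counts over the tested genes do not stand for all 10. In RNA from a part of the leaf blade that mixes cell types, fewer cells that express a gene and less RNA per cell cannot be told apart.

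The copalyl diphosphate synthases open each branch. CPS2, the ent-copalyl diphosphate synthase of the chromosome 2 cluster, stood at 15.4 FPKM in d1 and at 15.4 FPKM in WT, with a log2 ratio of -0.003 (p = 0.992 and q = 0.994 in the authors' deposited table). It was the most abundant cluster gene in both genotypes, with a level above that of 78.0% of all rows in d1 and 77.6% in WT. CPS4, the syn-copalyl diphosphate synthase of the chromosome 4 cluster, stood at 0.806 FPKM in d1 and 1.06 FPKM in WT. Its log2 ratio of -0.39 did not pass (q = 0.427 in the authors' deposited table). Neither synthase was called, and with 1 value per genotype no interval can be set around either ratio.

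The kaurene synthase-like cyclases take the product of these synthases. KSL7, which makes ent-cassadiene, the hydrocarbon of the phytocassanes, fell to 0.209 FPKM in d1, against 1.92 FPKM in WT. The log2 ratio was -3.20, a 9.19-fold lower level in d1, with p = 5e-05 and q = 0.000186 in the authors' deposited table. With 1 FPKM added to both genotypes the log2 ratio was -1.27, and with 0.1 FPKM added it was -2.71. Its p of 5e-05 is the smallest in the authors' deposited table and is shared by 1342 tested genes. KSL7 was thus called lower, and of the 2856 genes called lower, 192 (6.72%) had a log2 ratio at or below its value. KSL7 ranked 2 of the 10 in WT and 5 of the 10 in d1. Since CPS2 was level, the FPKM of CPS2 was 73.9 times that of KSL7 in d1 and 8.06 times in WT. KSL4, the syn-pimaradiene synthase of the momilactone branch, stood at 0.146 FPKM in d1 and 0.317 FPKM in WT, with a log2 ratio of -1.12 and no test. The FPKM of CPS4 was 5.52 times that of KSL4 in d1 and 3.33 times in WT.

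The cytochrome P450 genes of the chromosome 2 cluster act on ent-cassadiene and related skeletons. CYP76M7, a hydroxylase of ent-cassadiene, stood at 0.109 FPKM in d1 and 0.667 FPKM in WT, a log2 ratio of -2.62. With p = 0.0288 and q = 0.0629 in the authors' deposited table it was not called, and the recomputed Benjamini-Hochberg adjustment gave 0.138. CYP76M8, a close relative with a broader range of substrates, was listed at 0 FPKM in d1 and stood at 0.164 FPKM in WT, with no test. CYP71Z7, which hydroxylates another position of the cassadiene skeleton, stood at 0.0499 FPKM in d1 and 0.293 FPKM in WT, a log2 ratio of -2.55, again with no test. Of these 3 P450 genes, only CYP76M7 was tested, and it was not called. The 2 with a ratio and KSL7 all had log2 ratios below -2.5. With 1 FPKM added to both genotypes, the log2 ratio was -0.59 for CYP76M7 and -0.30 for CYP71Z7. Together with KSL7, the 3 P450 genes summed to 0.367 FPKM in d1 and 3.04 FPKM in WT. CYP76M7 and CYP76M8 are close paralogs, and since no source used here says how reads matching both were assigned, the division between them is uncertain.

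The oxidising enzymes of the chromosome 4 cluster were less uniform. CYP99A3, a P450 that oxidises syn-pimaradiene, stood at 1.30 FPKM in d1 and 1.49 FPKM in WT, a log2 ratio of -0.20 (p = 0.618 and q = 0.738 in the authors' deposited table). Its paralog CYP99A2 stood at 0.218 FPKM in d1 and 0.320 FPKM in WT, a log2 ratio of -0.55 with no test, and the same uncertainty over shared reads applies to the pair. MAS, the momilactone A synthase, a short-chain dehydrogenase for the last oxidation of momilactone A, stood at 0.0837 FPKM in d1 and 0.802 FPKM in WT. Its log2 ratio of -3.26 was the lowest of the 9 cluster genes that had one, yet it did not pass (p = 0.200 and q = 0.318 in the authors' deposited table). MAS and KSL7 thus had like ratios but p-values far apart, and the level of MAS in WT was below that of KSL7. Of the 179 tested genes at least 8-fold lower in d1 with a mean under 1 FPKM, a range that holds MAS and was chosen after its values were seen, 80 were called and 44 had a p-value at or above that of MAS in the authors' deposited table.

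By cluster, the 5 chromosome 4 genes summed to 2.56 FPKM in d1 and 3.99 FPKM in WT, and their log2 ratios ran between -3.26 and -0.20 with a median of -0.55. The 5 chromosome 2 genes summed to 15.8 FPKM in d1 and 18.5 FPKM in WT. The 4 of them above 0 in both genotypes had log2 ratios between -3.20 and -0.003 with a median of -2.58. No test of the difference between the clusters is possible from 1 value per genotype. Over both clusters, the 9 genes above 0 in both genotypes had a median log2 ratio of -1.12, which became -1.39 with equal FPKM sums. With 0.1 FPKM added to both genotypes, so that all 10 genes have a ratio, the median was -1.07, and with 1 FPKM added it was -0.21, because most of the genes lie below 1 FPKM. By order of level, the top place was held by CPS2 and the bottom place by CYP76M8 in both genotypes. MAS ranked 8 of 10 in d1 and 5 of 10 in WT.

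**Figure D2:**
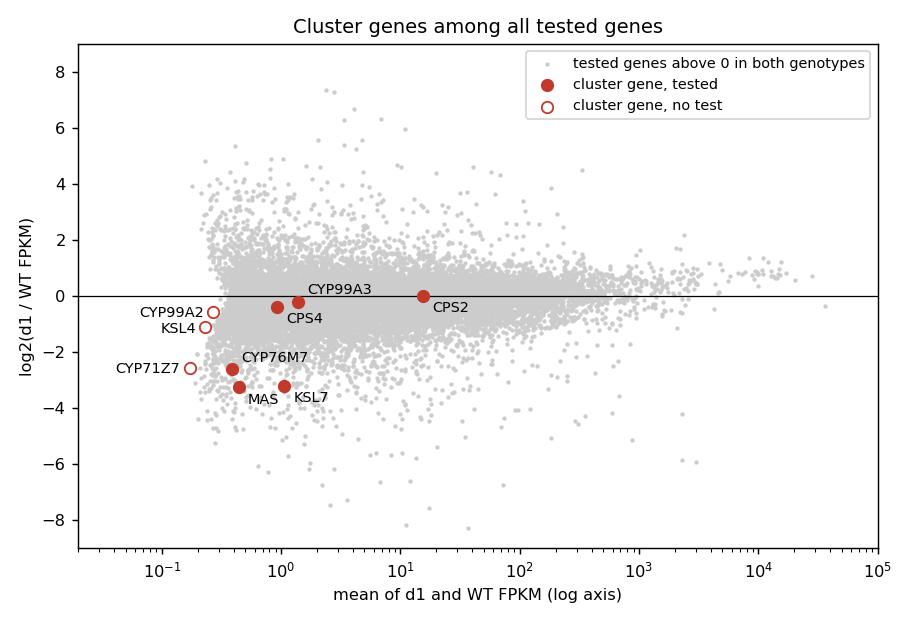
The log2 ratio of d1 over WT FPKM against the mean FPKM of both genotypes (log axis) for tested genes above 0 in both genotypes (grey) and for the 9 cluster genes with a ratio (red, filled where tested and open where not). CPS2 lies on the zero line at a mean near 15.4 FPKM, and MAS, KSL7, CYP76M7 and CYP71Z7 lie below -2.5 at means under 2 FPKM, where the grey points also spread widest.

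The identifiers run along each chromosome, so the loci between the cluster genes could be read in order. Between the first and last cluster gene there were 8 further loci, 2 on chromosome 4 and 6 on chromosome 2, whose names the files do not give. Of the 7 tested, 0 were called by the authors' deposited table (19.3% of all tested genes were), and 1 had an unadjusted p under 0.05. That locus, OS02G0570800, singled out after its values were seen, follows CYP71Z7 directly and stood at 0.149 FPKM in d1 and 0.917 FPKM in WT, a log2 ratio of -2.63 (q = 0.0778 in the authors' deposited table). It resembled its neighbour CYP71Z7 in the size of its ratio but did not pass. By contrast OS02G0570300, which lies between CYP76M7 and KSL7, stood at 0.510 FPKM in d1 and 0.506 FPKM in WT. The log2 ratios of the 7 tested inner loci had a median of -0.25, against -1.50 for the 6 tested cluster genes and -0.02 for all tested genes. No tested cluster gene lay between -2.62 and -0.39, and the sets compared differ in level.

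The inner loci at 1 FPKM or more all lay closer to equal levels. OS02G0570500 stood at 2.26 FPKM in d1 and 3.28 FPKM in WT (log2 ratio -0.54), and OS02G0570600 at 8.94 FPKM in d1 and 11.2 FPKM in WT (log2 ratio -0.33). OS02G0570900 stood at 4.22 FPKM in d1 and 5.01 FPKM in WT, and OS02G0571000 at 4.61 FPKM in d1 and 5.25 FPKM in WT. On chromosome 4, OS04G0179100, which precedes MAS, stood at 1.86 FPKM in d1 and 1.83 FPKM in WT. On chromosome 2, the loci with log2 ratios below -2.5 therefore did not form an unbroken run: CYP71Z7 and OS02G0570800 are adjacent, and OS02G0570300, OS02G0570500 and OS02G0570600 lie among the rest at smaller ratios.

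**Figure D3:**
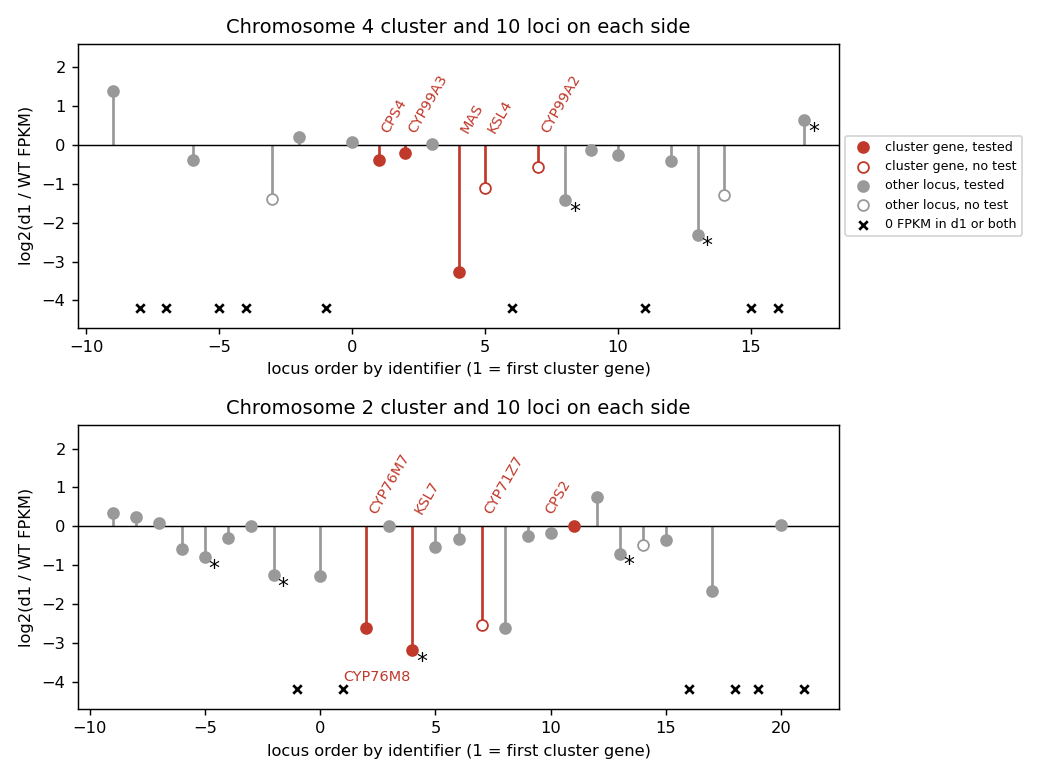
The log2 ratio of d1 over WT FPKM for loci in identifier order across each cluster and 10 loci on each side, with cluster genes in red and other loci in grey, filled where tested and open where not; stars mark called loci and crosses loci at 0 FPKM in d1 or in both genotypes. On chromosome 2 the low ratios of CYP76M7, KSL7 and CYP71Z7 are separated by loci with ratios between -0.54 and 0.01, and on chromosome 4 MAS stands below its neighbours.

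Other loci of the pathway were listed by identifier from general knowledge, and their pairing with a function was not checked against an annotation, so they are given by identifier and list only. Of 22 such loci in 4 lists, 20 were tested. Among these, 3 were called lower in d1 and 1 was called higher, where the shares over all tested genes were 12.1% and 7.24%. The median log2 ratio of the tested loci was 0.08, against -1.50 for the 6 tested cluster genes. No tested cluster gene lay near -1.50, which is the midpoint of -2.62 and -0.39. Levels were unlike as well. The 10 loci listed for plastid precursor supply stood at 4.16 to 1494 FPKM in d1, and 9 of 10 cluster genes had means under 2 FPKM. Of all tested genes with such low means, 21.6% stood at less than 1/2 of WT, against 9.82% at all levels.

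Of 6 further loci listed as diterpene cyclases, 4 were tested and 1 was called lower, where the share over all tested genes was 12.1%. The called locus was OS02G0571800, after CPS2 on chromosome 2, which fell to 1.55 FPKM in d1, against 2.53 FPKM in WT (q = 0.0272 in the authors' deposited table, and 0.0700 with the recomputed Benjamini-Hochberg adjustment, which ends the call). OS02G0571300, the locus between it and CPS2, stood at 1.38 FPKM in d1 and 0.826 FPKM in WT, with a log2 ratio of 0.74. It was not called (q = 0.0566 in the authors' deposited table, and 0.127 with the recomputed adjustment). These adjacent loci had ratios of opposite sign. The other tested loci of this list were not called either. OS02G0278700 stood at 4.37 FPKM in d1 and 3.04 FPKM in WT, and OS04G0611800 at 14.5 FPKM in d1 and 11.8 FPKM in WT.

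Of 4 further loci listed as P450 genes, all tested, 0 were called and 0 had an unadjusted p under 0.05 in the authors' deposited table. Their log2 ratios had a median of -0.44. Besides OS02G0570500, given above, OS06G0569500 stood at 8.35 FPKM in d1 and 10.6 FPKM in WT, and OS06G0570100 at 8.68 FPKM in d1 and 7.29 FPKM in WT. The least abundant, OS02G0569000, next to CYP76M8, stood at 0.219 FPKM in d1 and 0.536 FPKM in WT, a log2 ratio of -1.29. Of 2 loci listed as transcription factors of the pathway, 0 were called and 0 had an unadjusted p under 0.05. OS04G0637000 stood at 15.4 FPKM in d1 and 14.6 FPKM in WT. The weaker OS01G0196300 stood at 0.251 FPKM in d1 and 0.442 FPKM in WT, a log2 ratio of -0.82.

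The 10 loci listed for the plastid supply of geranylgeranyl diphosphate were all tested, and 2 were called lower and 1 higher. The shares over all tested genes were 12.1% lower and 7.24% higher, and counts this small were not tested against them. OS07G0190000 fell to 4.16 FPKM in d1, against 13.6 FPKM in WT, a log2 ratio of -1.71 (q = 0.000186 in the authors' deposited table). OS01G0802100 fell to 15.3 FPKM in d1, against 21.6 FPKM in WT (q = 0.0259 in the authors' deposited table, and 0.0670 with the recomputed adjustment, which ends this call too). OS05G0408900 rose to 662 FPKM in d1, against 384 FPKM in WT, a log2 ratio of 0.78 (q = 0.00116 in the authors' deposited table). The median log2 ratio of the list was 0.13, or -0.14 with equal FPKM sums. The 7 loci that were not called had log2 ratios between 0.00 and 0.32. Among them, OS03G0731900 was the most abundant at 1494 FPKM in d1 and 1197 FPKM in WT, and OS07G0580900 stood at 41.3 FPKM in d1 and 41.1 FPKM in WT. Between these lay OS02G0603800 at 441 FPKM in d1 and 382 FPKM in WT, OS01G0106900 at 271 FPKM in d1 and 263 FPKM in WT, and OS02G0680600 at 147 FPKM in d1 and 139 FPKM in WT. OS01G0887100 stood at 45.6 FPKM in d1 and 37.3 FPKM in WT, and OS06G0142900 at 33.2 FPKM in d1 and 29.1 FPKM in WT.

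**Figure D4:**
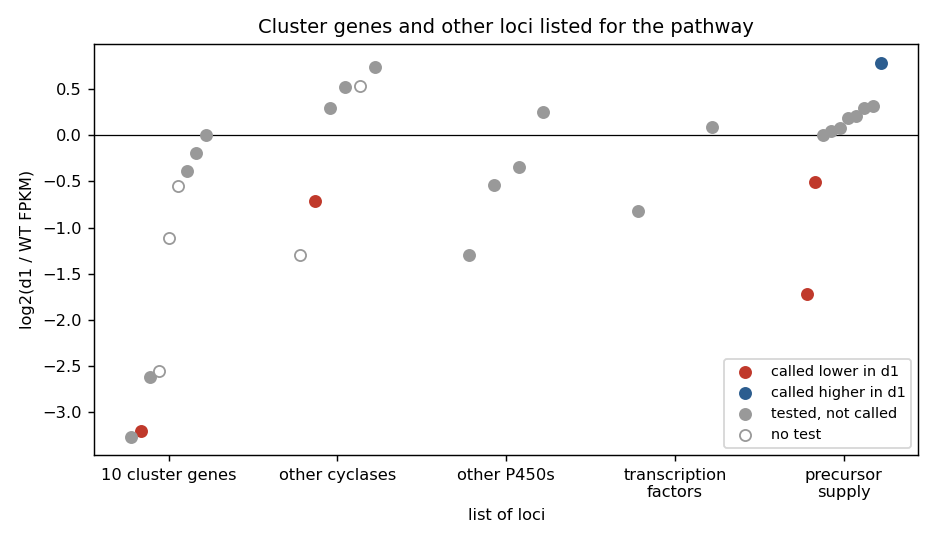
The log2 ratio of d1 over WT FPKM for the cluster genes and for the loci of 4 other lists of the pathway, 1 point per locus above 0 in both genotypes, sorted within each list; red marks loci called lower, blue called higher, grey tested and not called, and open circles no test. The cluster genes reach down to -3.26, while the precursor supply loci, at 4.16 to 1494 FPKM in d1, lie between -1.71 and 0.78.

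Markers of tissue were read beside these results. The 4 loci listed as rubisco small subunits, abundant in leaf mesophyll, stood at 3192 to 35243 FPKM in d1 and 1430 to 21644 FPKM in WT. Of these 4, 2 were called higher, where the share over all tested genes was 7.24%. Of 2 loci listed as root markers, 1 was at 0 FPKM in both genotypes and the other stood at 11.0 FPKM in d1 and 10.5 FPKM in WT. The 3 loci listed as cellulose synthases of the secondary wall, found in xylem and fibre cells, stood at 0.599 to 1.93 FPKM in d1 and 1.54 to 8.47 FPKM in WT. All 3 were called lower, where the share over all tested genes was 12.1%. With the Benjamini-Hochberg adjustment recomputed from the deposited p-values, 1 of these 3 lower calls and 1 of the 2 higher rubisco calls remained. The part of tissue composition in the lower levels of the cluster genes was not tested.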

How the data were processed

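Flag leaf RNA of d1 and WT, 2 libraries each, was sequenced as single-end reads of 150 bp, about 40000000 per library per the labels. Per the submitters' processing notes, FastQC, Trimmomatic, TopHat2, Cufflinks and Cuffdiff were used with build IRGSP-1.0; no version, parameter or annotation is stated in them. The deposited table holds 1 FPKM value per genotype, and a test statistic (a signed score), p-value and q-value per gene, all by the authors. Mapped depth is unknown, so no interval or detection limit can be given.

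From the deposited FPKM values, log2 ratios of d1 over WT were computed with no pseudocount unless stated (Python 3.11.15, pandas 2.3.3), and matched by identifier ignoring case. A Benjamini-Hochberg adjustment over the 23672 tested rows was recomputed as an alternative and tested on simulated data. No test across libraries was possible. Cluster gene names come from the rule that chose the loci. All 10 names occur in the RefSeq gene table of assembly ASM3414082v1, 9 on the same chromosome and in the same order; CYP76M7 is placed there on chromosome 6. Only 1 gene of that table matches an identifier of the file, so other loci keep their identifiers. The cluster genes, lists and tests were chosen with earlier results of these data known. All cluster genes were named, together with called loci and loci at 1 FPKM or more in the lists and inside the clusters. OS02G0569000 and OS01G0196300, below 1 FPKM, were added after their values were seen.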

Additional observations from a re-analysis of the deposited data

How the results depend on the processing

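No paired analysis was possible because the authors merged each genotype's libraries into 1 value, and no replicate could be left out either. KSL7 and no other cluster gene was called under the recomputed Benjamini-Hochberg adjustment (0.000882), q under 0.01 and at least 2-fold. The same held with a minimum of 1 FPKM in 1 genotype. KSL7 met that minimum in WT only (1.92 FPKM, against 0.209 FPKM in d1), so that setting adds no support. Equal FPKM sums, median centring and 1 or 0.1 FPKM added cannot change a call made from the deposited q-values, and leaving out repeated identifiers removes no cluster gene, so these settings say nothing about the stability of the call. The cluster genes' median log2 ratio of -1.12 became -1.39 with equal FPKM sums, -0.21 with 1 FPKM added and -0.29 over the 4 genes reaching 1 FPKM. Of those 4, KSL7 and CPS4 reached 1 FPKM in WT only. The other pathway loci called lower numbered 1, in place of 3, under the recomputed adjustment, q under 0.01 or at least 2-fold, and those called higher became 0, in place of 1, at 2-fold. Loci inside or beside the clusters called lower became 3, in place of 5, under the same 3 settings, and those called higher 0, in place of 1. Of all tested genes, the recomputed adjustment called 2170 lower and 1205 higher, in place of 2856 and 1713. The counts were 1860 lower and 972 higher at q under 0.01, and 1486 lower and 639 higher at 2-fold or more. Most cluster genes are below 1 FPKM, where the reads behind a value are unknown.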

Other observations

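The 10 loci on each side of the clusters, 40 in all, were read as a neighbourhood. Of the 24 tested, 5 were called lower in d1 and 1 higher by the authors' deposited table, with a median log2 ratio of -0.29. Over all tested genes, 12.1% were called lower and 7.24% higher, and counts this small were not tested against those shares. Beyond the chromosome 4 cluster, OS04G0182200 fell to 6.78 FPKM in d1, against 33.6 FPKM in WT, a log2 ratio of -2.31 (q = 0.000186 in the authors' deposited table). On the same side, OS04G0182600 rose to 6.60 FPKM in d1, against 4.24 FPKM in WT (q = 0.0341 in the authors' deposited table). OS04G0180500, the locus next to CYP99A2, fell to 0.499 FPKM in d1, against 1.33 FPKM in WT (q = 0.0377 in the authors' deposited table). The other 3 lower calls were on chromosome 2, with log2 ratios between -1.26 and -0.71, and include OS02G0571800, which is counted among the listed cyclases as well. With the recomputed Benjamini-Hochberg adjustment, 3 of the 5 lower calls and 0 higher calls were made. The files give no name for these loci.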
